A study of Mus musculus with 2 samples.

Results

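Type I interferon response genes were followed in LSK cells (Lin-Sca-1+c-Kit+), the bone marrow fraction that is enriched for hematopoietic stem cells and early progenitors, in a mouse model of chronic myeloid leukemia (CML). The members were 37 listed genes that are known to be switched on by interferon, of 32285 genes in the files, and all 37 were found in both matrices. Within them, 16 genes that cells keep at a low level until interferon acts (such as Isg15, the Ifit and Oas genes, Irf7, Rsad2 and Usp18) are called the induced genes here. Both the members and this subset were chosen with earlier results of these data known, so a lower level of either is not an independent result. The miR-142 WT CML library came from BCR-ABL+ mice and the miR-142 KO CML library from Mir142 KO BCR-ABL+ mice, both 8 to 10 weeks old. BCR-ABL, the fusion kinase that drives CML, was present in both groups. It was expressed from a transgene under the SCL promoter and was switched on by withdrawal of tetracycline. Mice with neither BCR-ABL nor the Mir142 knockout were not analysed here. There was 1 library per group, so no test was run. Intervals given with the values reflect counting error and say nothing of how mice vary.

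Type I interferons are secreted cytokines that bind the receptor formed by Ifnar1 and Ifnar2. The receptor activates the kinases Jak1 and Tyk2, and the factors Stat2 and Irf9 then act in a complex that binds the interferon-stimulated response element (ISRE) in the promoters of target genes. The target genes block viral replication at many steps, sense viral nucleic acid, and include both amplifiers (Irf7, Stat2, Irf9) and a brake (Usp18) of the pathway itself. Hematopoietic stem cells are known to keep part of this programme active without infection, and interferon is known to drive them out of dormancy. Interferon alpha is also a long-used treatment of CML.

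The ISRE core is printed here for 5 members, because it is the letter pattern that the complex with Stat2 and Irf9 is known to read. All 5 were taken from the members with a match. Isg15, Ifit1, Oas3 and Rsad2 were each at least 2-fold lower in miR-142 KO CML. Bst2 is shown for contrast, since its level was nearly the same in both libraries. Ifi27l2a, which had the largest ratio of all members, is not among the members with a match. Each stretch of 60 bases is from the RefSeq promoter windows (GRCm38.p6), lies wholly upstream of the start site and is written 5′ to 3′ on the strand of the gene. Capitals mark the match to the core, which is GAAA, then 2 bases of any kind, then GAAA again, or its reverse complement.
Isg15, chr4:156200862-156200921, minus strand: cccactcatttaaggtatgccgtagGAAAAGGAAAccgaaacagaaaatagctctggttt
Ifit1, chr19:34640779-34640838, plus strand: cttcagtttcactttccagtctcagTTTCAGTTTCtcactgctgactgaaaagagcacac
Oas3, chr5:120777700-120777759, minus strand: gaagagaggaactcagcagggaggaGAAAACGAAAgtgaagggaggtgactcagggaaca
Rsad2, chr12:26456538-26456597, minus strand: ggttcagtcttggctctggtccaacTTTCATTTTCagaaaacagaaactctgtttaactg
Bst2, chr8:71537568-71537627, minus strand: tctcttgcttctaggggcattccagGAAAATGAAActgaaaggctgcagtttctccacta

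The matches began 78 bases upstream of the start site in Isg15, 85 in Ifit1, 75 in Oas3, 120 in Rsad2 and 130 in Bst2. Promoter windows, which run from 250 bases before to 50 bases after the start site, were found for 29 of the 37 members. The ISRE core was present on either strand in 15 of these 29 members (51.7%), against 3.99% of all 27025 genes with a window. A longer form, the core followed directly by CT, was present in 8 of 29 members (27.6%) and in 0.303% of all genes. Another pattern that was searched, GAS (TTCNNNGAA, with N for any base), was present in 8 of 29 members (27.6%) and in 9.55% of all genes. The core was present in 9 of the 17 members with a window that were called at least 1.5-fold lower in miR-142 KO CML and in 6 of the other 12, 1 of them Ifit3, which was lower too but did not reach the level needed for a call. A match is a letter pattern in this window and no evidence of binding.

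Cells were barcodes with at least 8000 UMIs (unique molecular identifiers, each counting 1 captured transcript) and under 10% mitochondrial UMIs. This left 5363 miR-142 WT CML cells with a median of 19443 UMIs and 5458 miR-142 KO CML cells with a median of 24182 UMIs. As a check of the labels, Mir142hg, from which miR-142 is processed, was at 9.12 CPM (UMIs of a gene scaled to a common library total, as counts per 1e6 UMIs) in miR-142 WT CML and at 0.126 CPM in miR-142 KO CML, which fits the labels. The sort genes were present in both libraries, with Kit at 86.4 and 68.3 CPM and Ly6a, which encodes Sca-1 and is itself known to be interferon-inducible, at 96.8 and 152.9 CPM. The libraries shared 4 barcodes. They differed in cell makeup: HSC-like cells were 29.9% of miR-142 WT CML and 7.60% of miR-142 KO CML cells, and cells with neutrophil granule genes were 10.4% and 42.6%. Results are therefore given for whole libraries and again within cell groups.

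The interferon response genes were lower in miR-142 KO CML as a list, and the induced genes as a subset more so. The member with the largest ratio, Ifi27l2a, is outside this subset. The subset does not follow the measured level, since in miR-142 WT CML Stat2 (7.27 CPM) is outside it and Rtp4 (19.3 CPM) inside. The UMIs of all members together amounted to 1740.1 CPM in miR-142 WT CML and 1447 CPM in miR-142 KO CML, but most of this sum came from Ifitm3 and Bst2. The induced genes together amounted to 126 CPM (95% interval 124 to 127) in miR-142 WT CML and 39.0 CPM (38.0 to 39.9) in miR-142 KO CML, which is 3.22-fold lower. Of the 37 members, 35 reached a mean of 1 CPM over both libraries. Of these 35, 24 were at least 1.5-fold lower in miR-142 KO CML, where 12.2% of all 11652 genes with that mean were, and 0 were at least 1.5-fold higher, where 4.02% of all genes were. At least 2-fold lower were 17 members, against 4.57% of all genes. The median log2 ratio (KO over WT) was -0.94 over the 35 members and -1.74 over the 14 induced genes that reached 1 CPM, whereas it was -0.12 over all genes. All 35 ratios were below 0, as were those of 7672 of all 11652 genes. After this shift of all genes was removed, Bst2, Ifitm3, Ifi35 and Lgals3bp were above 0, and the median of the members was -0.82.

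**Figure D1:**
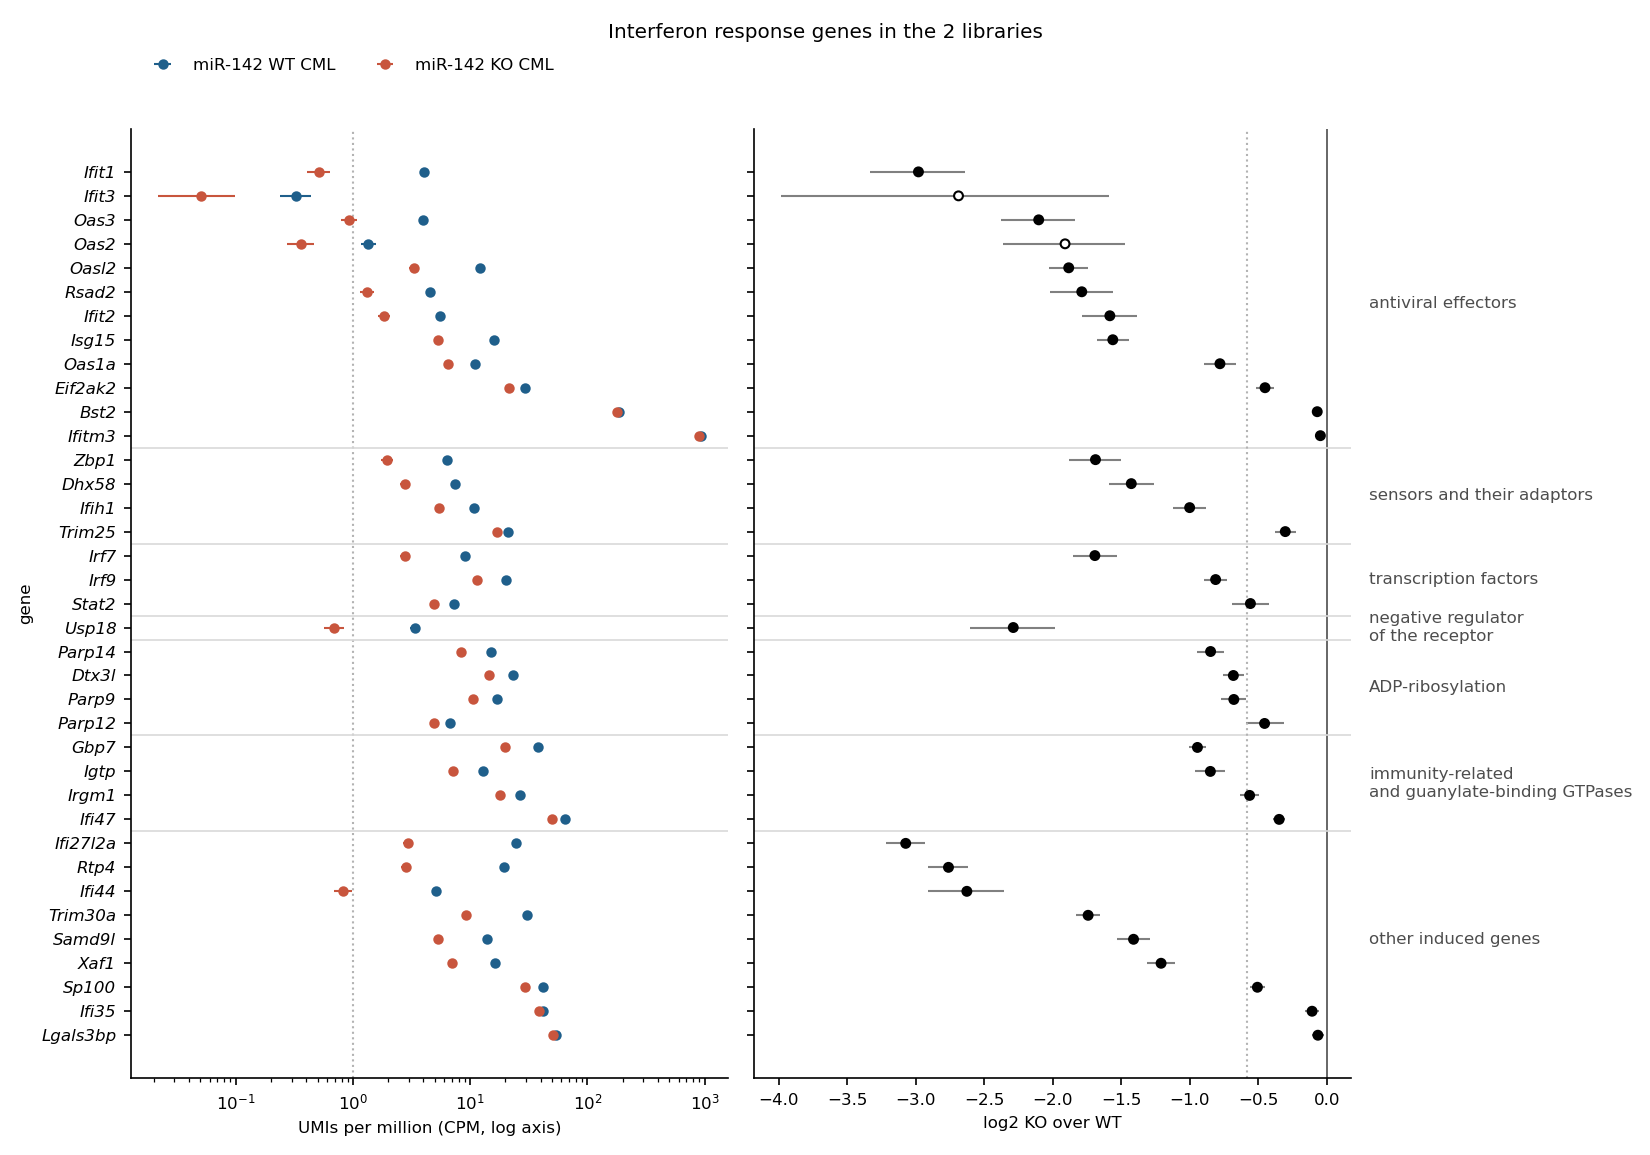
Level of each of the 37 interferon response genes (left, CPM on a log axis, miR-142 WT CML in blue and miR-142 KO CML in red) and its log2 ratio of KO over WT (right), grouped by role. Bars are exact 95% counting intervals, the dotted lines mark 1 CPM and a 1.5-fold lower level, and the open circles are Ifit3 and Oas2, which did not reach a mean of 1 CPM. Every point of the right panel lies below 0, with Ifi27l2a and Ifit1 at the low end and Ifitm3, Lgals3bp and Bst2 next to 0.

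The antiviral effectors act directly on viral RNA, proteins or budding particles. Isg15, a ubiquitin-like protein that is attached to other proteins, was at 15.8 CPM (15.2 to 16.5) in miR-142 WT CML and 5.36 CPM (5.01 to 5.74) in miR-142 KO CML. Ifit1, which binds viral RNA with foreign caps, was at 4.04 CPM and 0.511 CPM, the largest ratio among the effectors that reached 1 CPM (log2 -2.98, -3.34 to -2.64). Ifit2, of the same family, was at 5.51 and 1.84 CPM. The Oas genes, which make the messenger that activates RNase L, lay in the same direction but over a wide range. Oas3 was at 3.99 CPM in miR-142 WT CML and 0.928 CPM in miR-142 KO CML. Oasl2 was at 12.2 and 3.29 CPM. Oas1a was at 11.01 and 6.41 CPM, a 1.72-fold difference and the smallest among the induced genes. Rsad2 (viperin), which makes a chain-terminating nucleotide, was at 4.54 CPM and 1.31 CPM. The other members of these families, Ifit3 and Oas2, stayed under the floor and are given by their counts alone, with 45 and 8 UMIs in all for Ifit3 and 187 and 57 for Oas2.

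The remaining 3 effectors missed the 1.5-fold mark, and of these Ifitm3 and Bst2 had high levels in both libraries and differed little. Ifitm3, which blocks the entry of viruses through endosomes, was at 931 CPM (926 to 936) in miR-142 WT CML and 901 CPM (897 to 906) in miR-142 KO CML. Bst2 (tetherin), which holds budding particles at the membrane, was at 186 and 177 CPM. Eif2ak2 (PKR), the kinase that halts translation on viral RNA, was at 29.2 and 21.3 CPM, a 1.37-fold difference. In all, 7 of the 10 effectors that reached 1 CPM were at least 1.5-fold lower.

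Among the sensors, Zbp1, which detects left-handed nucleic acid and starts cell death, was at 6.29 CPM in miR-142 WT CML and 1.95 CPM in miR-142 KO CML. The RNA helicase Dhx58 (LGP2) was at 7.45 and 2.77 CPM. Its relative Ifih1 (MDA5) was at 10.9 and 5.42 CPM. Trim25, the ubiquitin ligase of the RIG-I pathway, was at 20.9 and 17.0 CPM and was the only one of these 4 genes under 1.5-fold. Of the transcription factors, Irf7, the amplifier of interferon production, was at 9.00 CPM and 2.78 CPM, which is 3.23-fold lower. Irf9 was at 20.05 and 11.42 CPM and Stat2, which works with it in 1 complex, at 7.27 and 4.94 CPM. Irf9 overlaps Rnf31 on the same strand, so some reads could not be assigned to either gene. Usp18, which removes Isg15 from proteins and blocks the receptor, was at 3.39 CPM (3.09 to 3.72) and 0.694 CPM (0.571 to 0.837), so the brake of the pathway was lower together with its targets.

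The ADP-ribosylation genes were closer between the libraries. Parp14 was at 15.04 and 8.35 CPM, and Parp9 and its partner Dtx3l, which share a promoter region and act as 1 complex, had nearly equal log2 ratios of -0.68 each. Parp12 was at 6.74 and 4.92 CPM and missed 1.5-fold. Of the GTPases that attack pathogen vacuoles, Gbp7 was at 38.0 and 19.7 CPM and Igtp at 12.8 and 7.10 CPM, whereas Irgm1 (log2 -0.56) and Ifi47 (-0.35) missed 1.5-fold. The largest ratio of all members was that of Ifi27l2a, of the Ifi27 family of small membrane proteins, at 24.6 CPM (23.8 to 25.5) in miR-142 WT CML and 2.92 CPM (2.66 to 3.20) in miR-142 KO CML, 8.42-fold lower. Rtp4, a chaperone of receptors that also limits viral replication, was at 19.3 and 2.84 CPM, and Ifi44 at 5.07 and 0.821 CPM. Trim30a was at 30.6 and 9.13 CPM, Samd9l, a brake on myeloid growth, at 14.02 and 5.27 CPM, and Xaf1, which promotes cell death, at 16.3 and 7.02 CPM. Sp100, a nuclear body protein, missed 1.5-fold with 41.8 and 29.4 CPM. Ifi35 (41.6 and 38.6 CPM) and Lgals3bp (53.6 and 51.2 CPM) were nearly level. The members with the largest ratios were thus spread over effectors, sensors, factors and genes of other function.

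Fewer genes of the rest of the pathway were lower. Interferon genes themselves were almost absent: Ifnb1 had 1 UMI in miR-142 WT CML and 0 in miR-142 KO CML, and Ifna1, Ifna2, Ifna4, Ifnk, Ifne and Ifng had 0 in the cells of both libraries. The receptor chain Ifnar1 was at 17.97 and 17.93 CPM, and Ifnar2 at 111.7 and 138.0 CPM. Of the 33 pathway genes outside the members that reached 1 CPM, 6 (18.2%) were at least 1.5-fold lower and 1 higher, with a median log2 ratio of -0.17. Among all genes these shares were 12.2% and 4.02%, with a median of -0.12. The higher one was Ifngr1, the receptor chain for interferon gamma (110.3 and 190.6 CPM). The 2 with the lowest ratios were Ddx58 (RIG-I), at 12.2 and 5.16 CPM, and Irf8, a factor of monocyte and dendritic cell fate, at 77.7 and 38.2 CPM. The 7 inhibitors on the list (Socs1, Socs3, 4 phosphatases and Pias1) lay between -0.48 and 0.20. Of the 8 STAT and IRF factors outside the members that reached 1 CPM, 4 were at least 1.5-fold lower, with a median log2 ratio of -0.43. The ligands were thus almost absent from these cells and the receptor was present in both libraries. The target genes and part of the factors differed.

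To ask whether the difference lay in a few cell groups or in all, cells were gated by marker genes after each had been thinned to 8000 UMIs. The 8 groups with at least 50 cells in both libraries were HSC-like (1601 and 415 cells), lymphoid-primed-like (505 and 315), megakaryocyte-like (321 and 230), monocyte-like (314 and 394), neutrophil-granule-like (556 and 2324), basophil/mast-like (225 and 308) and cells outside every lineage gate with many (850 and 518) or few (925 and 740) G2/M genes. The number of markers each gate asks for was set after the data were seen. Ifi27l2a itself was among the 10 genes that lead the lymphoid-primed-like group, though it was not used for the gate.

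The induced genes were lower in miR-142 KO CML in all 8 groups, by 1.64-fold to 2.61-fold, and each 95% counting interval of the log2 ratio lay below 0. HSC-like cells had the highest level in both libraries, 224 CPM (219 to 230) in miR-142 WT CML and 95.2 CPM (87.4 to 103) in miR-142 KO CML. Within miR-142 WT CML, cells outside the gates with few G2/M genes (160.5 CPM), megakaryocyte-like (150.1 CPM), lymphoid-primed-like (144 CPM) and basophil/mast-like cells (142 CPM) followed, and neighbours in this order had overlapping counting intervals. Cells outside the gates with many G2/M genes were at 124 CPM. Neutrophil-granule-like cells (59.8 CPM) and monocyte-like cells (33.9 CPM) had the lowest levels. The order in miR-142 KO CML was similar at its ends, with lymphoid-primed-like cells (87.4 CPM) next to HSC-like cells and with neutrophil-granule-like (26.0 CPM) and monocyte-like cells (20.6 CPM) at the bottom. Neutrophil-granule-like and monocyte-like cells, which took larger shares of miR-142 KO CML, thus had the lowest levels in both libraries. Basophil/mast-like cells, at 4.20% and 5.64% of cells, were at 142 and 80.2 CPM, but few cells carried much of this level. After thinning, the top 1% of this group (2 and 3 cells) held 29.0% and 58.0% of its induced UMIs. An induced UMI was found in 38.2% and 27.3% of basophil/mast-like cells, against 59.5% and 34.8% of megakaryocyte-like cells. With both libraries weighted to 1 composition of these groups, the induced genes were at 104 and 47.6 CPM and the log2 ratio moved from -1.69 to -1.13. Under this weighting 18 of the 35 members were at least 1.5-fold lower, where 4.46% of all genes were.

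**Figure D2:**
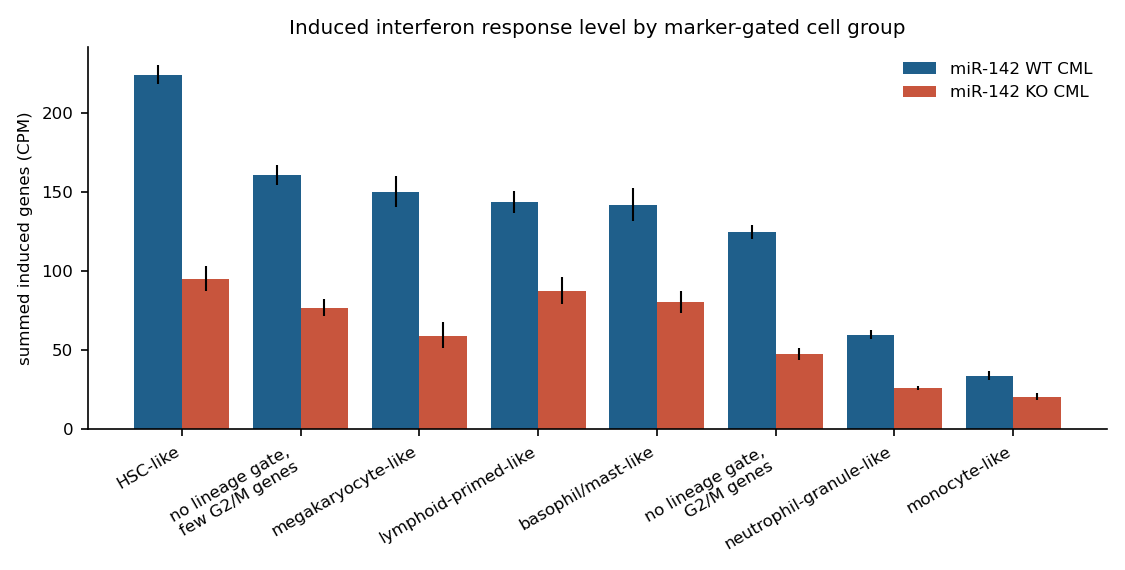
Summed level of the 16 induced genes (CPM) in the 8 marker-gated cell groups, ordered by the level in miR-142 WT CML (blue) beside miR-142 KO CML (red). Bars start at 0 and the lines are exact 95% Poisson intervals. The miR-142 KO CML bar is the shorter one in every group, and the gap runs from 224 against 95.2 CPM in HSC-like cells to 33.9 against 20.6 CPM in monocyte-like cells.

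The number of members at least 1.5-fold lower also exceeded the share among all genes in each group. It was 19 of 35 in HSC-like cells (8.13% of all genes), 21 of 35 in cells outside the gates with many G2/M genes (6.66%) and 14 of 35 in those with few (7.22%). It was 20 of 35 in megakaryocyte-like (9.68%), 17 of 35 in neutrophil-granule-like (5.48%) and 10 of 35 in lymphoid-primed-like cells (8.49%). The remaining groups had 13 of 33 in basophil/mast-like (7.42%) and 10 of 31 in monocyte-like cells (6.16%). Only 1 member in 1 group was at least 1.5-fold higher, namely Lgals3bp in basophil/mast-like cells. At least 1.5-fold higher were 10.6% of all genes in that group, 4.18% in HSC-like, 6.95% in lymphoid-primed-like, 5.24% in megakaryocyte-like, 8.22% in monocyte-like and 5.64% in neutrophil-granule-like cells, and 3.93% and 4.2% outside the gates with many and few G2/M genes. Of the 35 members measured in at least 1 group, 22 were below 0 in every group where they could be measured. The share of all genes with this pattern was not counted. The median log2 ratio over all genes lay between -0.068 in megakaryocyte-like and 0.0071 in basophil/mast-like cells.

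Ifi27l2a had the same direction everywhere, with log2 ratios from -3.38 in monocyte-like cells to -1.63 in cells outside the gates with few G2/M genes. Its level ranged from 5.76 CPM in monocyte-like to 118 CPM in basophil/mast-like cells of miR-142 WT CML. In the same groups of miR-142 KO CML it ranged from 0.552 to 12.6 CPM. Few cells carried much of the 118 CPM. Basophil/mast-like cells of miR-142 WT CML held 595 Ifi27l2a UMIs before thinning. Even after thinning, single cells among them had 59 and 46, and the cell with 46 was marked as a possible doublet. In miR-142 KO CML the group held 81, and a single cell had 16 after thinning. The ratio of this group without such cells was not tested. Rtp4 was highest in HSC-like cells, at 37.2 and 13.4 CPM, and its ratios lay between -2.86 and -1.47. The ratios of Trim30a lay between -1.60 and -1.01. These 3 genes were lower in every group by at least 2-fold.

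Isg15 varied more: it was at 9.10 and 2.97 CPM in neutrophil-granule-like cells, but at 16.1 and 12.4 CPM in lymphoid-primed-like cells, where the interval of its log2 ratio (-0.38, -0.82 to 0.04) included 0. Irf7 in monocyte-like cells was nearly level, at 1.01 and 0.938 CPM. Ifitm3 was above 0 in 3 of 8 groups and lowest in basophil/mast-like cells, at 671 and 364 CPM. Lgals3bp was above 0 in all 8 groups, although its ratio over whole libraries was just below 0. Parp12 was below 0 in 2 of 8 groups, and Samd9l was above 0 in basophil/mast-like and monocyte-like cells with intervals that included 0. The whole-library ratios of Lgals3bp and Parp12 therefore did not carry over to the groups.

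**Figure D3:**
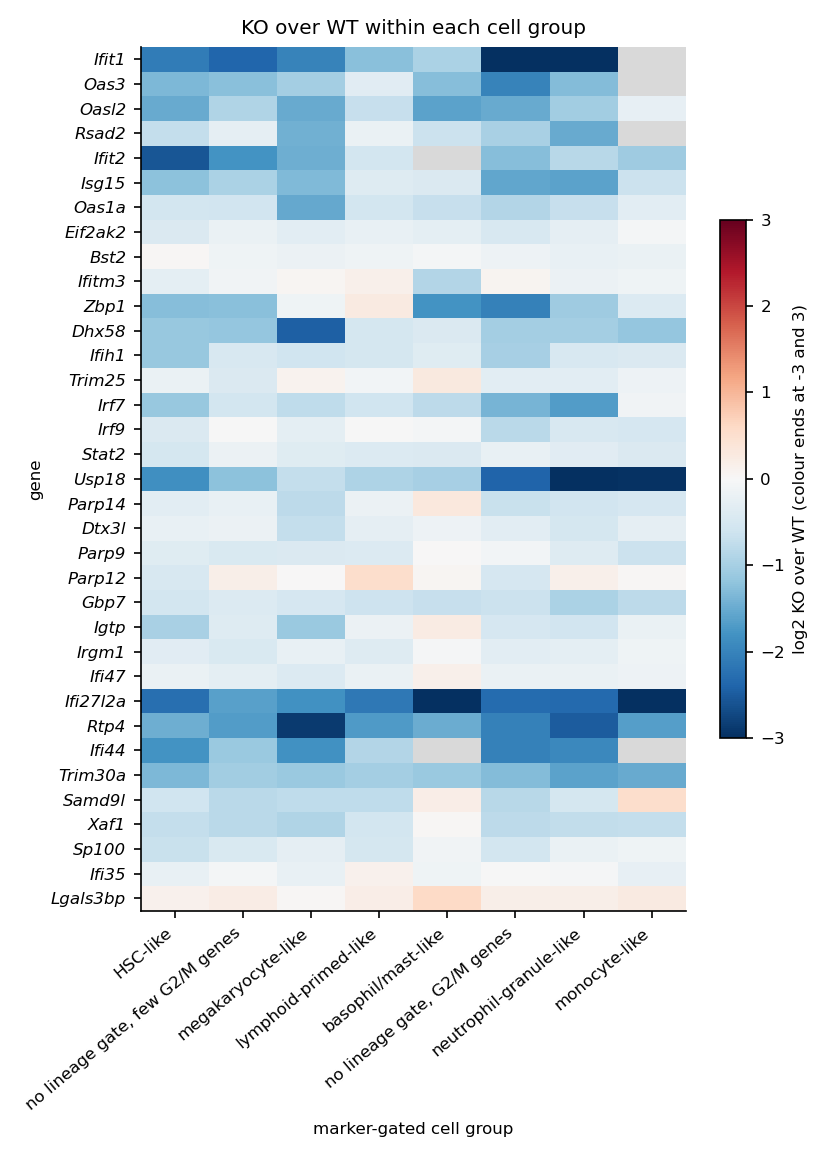
Log2 ratio of KO over WT for the 35 members that reached 1 CPM (rows, by role) in the 8 cell groups (columns, by induced level in miR-142 WT CML), with blue for lower and red for higher in miR-142 KO CML. Grey cells had fewer than 20 UMIs over both libraries. Blue fills the rows of Usp18, Ifi27l2a, Rtp4 and Trim30a, and that of Ifit1 except for grey in monocyte-like cells. Lgals3bp is the row above 0 in all 8 columns.

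The next question was whether a few cells carry the response or all do. At 8000 UMIs per cell, at least 1 induced UMI was found in 56.3% of miR-142 WT CML cells (exact 95% interval 55.0 to 57.6) and in 28.6% of miR-142 KO CML cells (27.4 to 29.8). Before thinning, at unequal depth, these shares were 82.5% and 56.9%. The mean was 1.33 induced UMIs per cell in miR-142 WT CML and 0.457 in miR-142 KO CML. If these UMIs were spread evenly, 26.5% and 63.3% of cells would have none by sampling alone, whereas 43.7% and 71.4% had none. The variance was 5.02 and 6.99 times the mean, where an even spread gives a variance equal to the mean. A few cells weigh heavily in a variance, and the strongest of miR-142 KO CML had 80, 66 and 47 induced UMIs. Within the 8 groups this multiple lay between 1.41 and 14.1 in miR-142 WT CML and between 1.20 and 40.9 in miR-142 KO CML. It was highest in basophil/mast-like cells of both, so no order of the libraries is read from it. The response was thus uneven in both libraries, with part of the unevenness between cell groups.

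Cells with a strong response were few. At least 5 induced UMIs were found in 274 cells of the WT library and in 37 of the KO library. At least 10 were found in 64 cells of miR-142 WT CML (1.19%, 0.920 to 1.52) and in 9 cells of miR-142 KO CML (0.165%, 0.0754 to 0.313). The 64 cells held 15.3% of all induced UMIs in their library, and the 9 cells held 10.96%. The 5% of cells with most induced UMIs held 32.9% of them in miR-142 WT CML and 42.0% in miR-142 KO CML, but 30.5% and 30.7% before thinning, so no order is read from these shares. The difference between the libraries did not lie in these cells alone. The mean per cell was 2.91-fold lower in miR-142 KO CML over all cells. It was 3.15-fold lower once the top 1% of cells in each library (54 and 55 cells) was left out. This cut takes nearly equal numbers from both libraries, so it cannot measure the part of the 64 and 9 strong cells. Cells with 1 to 4 induced UMIs held 66.7% of them in miR-142 WT CML and 82.5% in miR-142 KO CML, and such cells made up 51.2% and 27.9% of the cells.

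**Figure D4:**
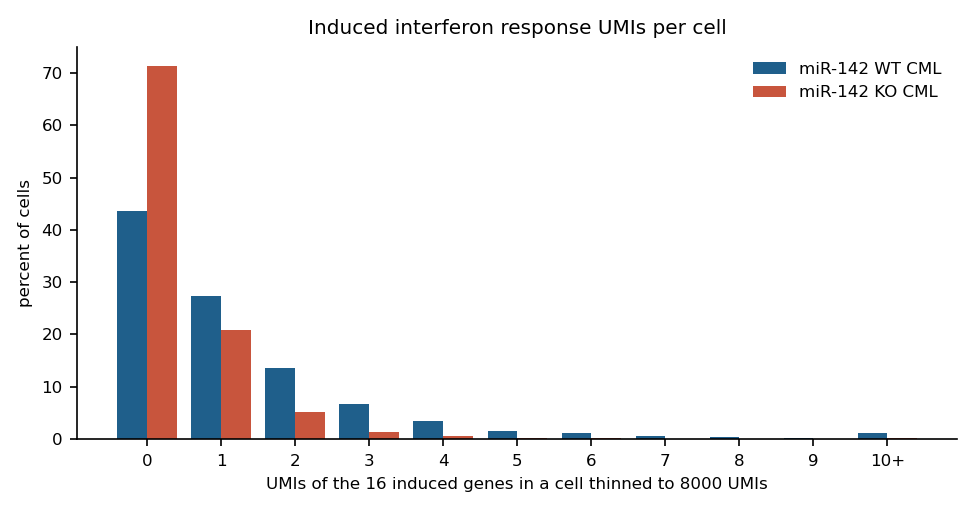
Share of cells (percent) by the number of UMIs of the 16 induced genes in a cell thinned to 8000 UMIs, for miR-142 WT CML (blue, 5363 cells) and miR-142 KO CML (red, 5458 cells), with 10 and more in the last class. Cells with none make up 43.7% and 71.4%, each class from 1 upward is larger in miR-142 WT CML, and the last class holds 1.19% and 0.165%.

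An uneven spread was also seen within groups, but some groups of miR-142 KO CML were close to even. Among HSC-like cells, 72.3% of 1601 miR-142 WT CML cells had an induced UMI, against 46.7% of 415 miR-142 KO CML cells, and an even spread would leave 14.4% and 42.3% with none where 27.7% and 53.3% had none. Of the 64 strong cells in miR-142 WT CML, 33 were HSC-like, which is 2.06% of that group. In neutrophil-granule-like cells the shares with an induced UMI were 33.3% and 20.5%, and 0 of 2324 miR-142 KO CML cells had 10 or more, which allows a share of up to 0.129% by 3 counts of the total (exact 95% upper limit 0.159%). An even spread would leave 57.6% and 77.9% of neutrophil-granule-like cells with none, where 66.7% and 79.5% had none. In monocyte-like cells it would leave 74.4% and 82.9% with none, where 76.1% and 83.8% had none. The variance in miR-142 KO CML was 1.20 times the mean in the former group and 1.24 times in the latter. Monocyte-like cells had the lowest shares with an induced UMI, 23.9% and 16.2%. No group here lacks these genes by definition, and median depth before thinning was 57092 and 45058 UMIs in monocyte-like against 13411 and 11424 in HSC-like cells, so the part of free RNA in these shares was not tested. In barcodes with 10 to 100 UMIs, taken as free RNA, the induced genes were at 135 CPM in miR-142 WT CML and 38.0 CPM in miR-142 KO CML, close to the levels in cells.

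The induced genes tended to be found in the same cells, though often alone in miR-142 KO CML. Of cells with an Isg15 UMI, 74.0% in miR-142 WT CML and 44.2% in miR-142 KO CML had another induced gene. Of cells without one, 50.9% and 25.2% had another. In miR-142 WT CML, cells with an Isg15 UMI had 2.99 UMIs of the other induced genes and cells without one had 0.948, a ratio of 3.16. In miR-142 KO CML these means were 1.51 and 0.337, a ratio of 4.46. Within HSC-like cells the ratios were 2.44 and 3.23. Cells with an Irf7 UMI had 3.58 and 2.06 UMIs of the other induced genes in the WT and the KO library, and cells with an Rtp4 UMI had 2.54 and 2.50. There were 856 WT and 179 KO cells with Rtp4, and the 179 included the 3 strongest KO cells, with 80, 66 and 47 induced UMIs. Without cells of 10 or more induced UMIs, a choice made after seeing the data, the means in cells with Rtp4 were 1.72 and 1.15, those with Irf7 2.07 and 0.959, and those with Isg15 1.80 and 0.893. The ratios of cells with to cells without Isg15 were then 1.93 and 2.68. Strong cells thus carried much of these means, and among HSC-like cells the means with Rtp4 were 2.77 and 2.07.

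The strongest cell of each library had almost equal numbers. In miR-142 WT CML it had 85 induced UMIs among 8000, with 15 of the 16 induced genes and 29 of the 37 members detected, including 16 Isg15, 13 Irf7 and 12 Ifi44 UMIs, and was outside every lineage gate. In miR-142 KO CML it had 80, of which 48 were Isg15 and 16 Irf7, with 7 of the 16 induced genes and 24 members detected, and was basophil/mast-like. A further basophil/mast-like cell of miR-142 KO CML had 66 induced UMIs, with 13 induced genes and 34 members detected. The 64 strong cells had a median of 13589 UMIs before thinning, below the 19443 of their library, and 1 of them was among the top-scoring barcodes of the doublet caller Scrublet. Without the strong cells of both libraries, the log2 ratio of the summed induced genes was -1.60, against -1.69 with them.

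Markers of other cells moved with the libraries as well. Over all cells, the 7 neutrophil granule markers summed to 6229 CPM in miR-142 WT CML and 14479 CPM in miR-142 KO CML, and the 8 HSC markers to 726 and 657 CPM. The 6 antibody-secreting markers summed to 3917 and 3.15 CPM, with 40 such cells in miR-142 WT CML and 0 in miR-142 KO CML. The 6 markers of plasmacytoid dendritic cells, the main interferon producers, summed to 23.1 and 2.65 CPM. In miR-142 WT CML most of this came from Cox6a2 (10.2 CPM) and Ly6d (9.60 CPM), which are also among the genes that lead the lymphoid-primed-like and the antibody-secreting-like group. Siglech had 9 and 0 UMIs, Klk1 had 0 in both, and 1 WT and 0 KO cells had 3 or more of the 6 markers. The 8 macrophage and dendritic markers were at 3.99 and 3.33 CPM, with Cd209a at 0 in both. The part of these cells in the levels of the members was not tested. Genotype, mice and library cannot be told apart with 1 library per group.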

How the data were processed

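LSK cells of 2 libraries were measured by 3′ single cell RNA-seq (10x Genomics v3.1). The deposited values are raw UMI counts per gene and barcode that the authors made with Cell Ranger on mm10. The submitters' processing notes give version 6.1.2 and the file headers another version. Reads that match more than 1 gene are dropped by this tool, so close copies (Ifit3 and Ifit3b, Oas1a and Oas1g, Trim30a and Trim30d) and overlapping genes are uncertain. Since 1 end of each transcript is counted, CPM is not scaled by length. The labels give about 8000 captured cells per library, and 9216 WT and 7370 KO barcodes had over 300 UMIs, the cutoff of the study.

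Barcodes with at least 8000 UMIs and under 10% mitochondrial UMIs were kept (the mitochondrial limit removed 24 and 4). Counts were summed per library or cell group as CPM, with exact Poisson, Clopper-Pearson or conditional binomial 95% intervals (SciPy 1.17.1). Log2 ratios were called only by size, at 1.5-fold or 2-fold and a mean of 1 CPM; within groups a gene needed 20 UMIs. For gates and shares of cells, each cell was thinned to 8000 UMIs (seed 1), which lost no cell. Gates took the number of distinct markers found, in a fixed order, and 740 WT and 940 KO cells met more than 1. The gates asked for 3 of 6 antibody-secreting, 4 of 8 basophil/mast, 3 of 6 innate lymphoid, 3 of 7 erythroid, 3 of 7 megakaryocyte, 3 of 6 monocyte, 5 of 7 neutrophil granule, 3 of 8 HSC and 4 of 6 lymphoid markers, and 5 of 15 G2/M genes divided the rest. Doublets were kept. The automatic threshold of Scrublet (scanpy 1.11.5) marked 1 cell and had not worked, so 230 WT and 238 KO top-scoring barcodes were left out as an alternative. The ratio step was tested on simulated data. All members could be named; other genes came from fixed lists. A pathway gene that is counted in its list is not reported here on its own. The members and lists were chosen with earlier results of these data known. Promoter windows and gene positions (32158 of 32285 identifiers matched) are from GRCm38.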

Additional observations from a re-analysis of the deposited data

How the results depend on the processing

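No paired analysis was possible because each group had 1 library with no shared replicate numbers, and for the same reason no replicate could be left out. No alternative changed the direction of a summed or median value, and 62 of 99 main values stayed within the counting interval of the reported one (counts within 1.5 times). With size factors the log2 ratio (KO over WT) was -0.82 for the median member, -0.14 for all members summed and -1.56 for the induced genes, and with 1 composition of cell groups it was -0.67, -0.24 and -1.13. Cells of 16000 UMIs or more gave -0.23 for the members summed and -1.81 for the induced genes. The members summed gave -0.28 at 4000 UMIs and -0.27 at 300 UMIs. A floor of 10 CPM left 19 members, of which 10 were at least 1.5-fold lower, with a median of -0.68. Alternatives chosen after seeing the data gave -1.77 for the induced genes without antibody-secreting-like, basophil/mast-like and innate lymphoid-like cells, and -0.23 for the members and -1.60 for the induced genes without cells of 10 or more induced UMIs. The share of cells with a UMI followed the depth and list, at 37.9% WT and 16.3% KO of cells thinned to 4000 UMIs, 82.5% and 56.9% unthinned, and 99.98% and 99.8% with all members counted. The top 5% of cells then held 35.4% and 48.9%, 30.5% and 30.7%, and 13.2% and 11.6%. A gate with 1 more marker gave induced ratios of -1.09 in HSC-like, -1.12 in megakaryocyte-like, -1.12 in monocyte-like and -0.93 in neutrophil-granule-like cells, and of -1.71 and -1.51 outside the gates with many and few G2/M genes. Without cells of 10 or more induced UMIs the ratio was -1.12 in basophil/mast-like, -0.95 in lymphoid-primed-like, -1.04 in neutrophil-granule-like and -1.16 in ungated cells with many G2/M genes. The cause of these moves was not tested.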

Other observations

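Other interferon-inducible genes were examined as lists that hold none of the members, with 12.2% of all genes at least 1.5-fold lower. Of 34 further interferon-stimulated genes that reached 1 CPM, 19 were at least 1.5-fold lower in miR-142 KO CML and 1 was higher, with a median log2 ratio (KO over WT) of -0.93. Among them Iigp1, an immunity-related GTPase, was at 4.48 CPM in miR-142 WT CML and 0.574 CPM in miR-142 KO CML. Trim30d, a neighbour and close relative of Trim30a, was at 5.50 and 1.02 CPM, and Phf11b at 4.05 and 0.751 CPM. The higher one was Ly6a, at 96.8 and 152.9 CPM, and cells had been sorted on its product. Ifitm2 and Ly6e, which like Ifitm3 had high levels in both libraries, were at 834 and 937 CPM and at 496 and 569 CPM.

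The HIN200 genes encode DNA-binding proteins and lie in a cluster on chromosome 1. Of 12 on the list, 4 reached 1 CPM. Of these 4, 3 were at least 2-fold lower, where 4.57% of all genes were. Ifi203 was at 117.9 and 41.1 CPM, Mndal at 96.1 and 37.0 CPM, and Ifi209 at 7.14 and 1.64 CPM, whereas Aim2, the inflammasome sensor, was at 24.6 and 19.0 CPM. These genes belong to 1 family, so the split of reads between close copies among them is uncertain.

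Antigen presentation genes mostly stayed level. Of 17 genes, 4 were at least 1.5-fold lower, with a median of -0.19. H2-D1, a classical class I gene, was at 858 and 964 CPM, while H2-Q7, a non-classical one, was at 113 and 47.6 CPM.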
